A study of Homo sapiens with 6 samples.

Results

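The ETS family of transcription factors was followed through 10 of its members, ETS1, ETS2, ELF1, ELF3, ELF4, EHF, ELK3, ETV6, ERF and GABPA, taken by gene symbol from the 58884 rows of a bulk RNA-seq table, where each symbol had 1 row. The table holds 6 libraries from cultured, untreated human cells. KYSE450 is an esophageal squamous cell carcinoma line with wild-type NRF2, and 3 libraries came from it. The other 3 came from KEAP1null-KYSE450, a monoclonal line made from KYSE450 by CRISPR-Cas9 cutting within KEAP1, so loss of KEAP1 and the choice of 1 clone cannot be told apart. The labels do not say that the libraries of a line came from separate cultures, and the p-values then measure only the spread between these libraries. Values are normalized counts, that is, read counts divided by a size factor for each library. A fold change was called where the adjusted p was under 0.05 and the log2 fold change was at least 1 in size. In the bulk libraries, fewer cells that express a gene and less RNA of it per cell cannot be told apart.

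ETS proteins share a winged helix-turn-helix DNA-binding domain that recognises a GGAA core, and they differ in the partners they bind and in the signals they answer to. Many are substrates of the ERK kinases, which turn activators such as ETS1 and ETS2 up and drive the repressor ERF out of the nucleus. In squamous epithelium, ETS1 is known from the proliferative basal side, while ELF3 and EHF belong to an epithelium-specific group linked to the differentiating layers. GABPA carries the historical name nuclear respiratory factor 2 and is unrelated to NRF2, the product of NFE2L2 that KEAP1 holds in check.

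KEAP1 transcript was present in every library, at 5760, 5226 and 5146 normalized counts in KYSE450 and 5737, 4906 and 5317 in KEAP1null-KYSE450. The groups overlapped, with a log2 fold change of -0.02 (adjusted p = 0.900) that changed sign in 4 other fits, and a count of transcripts does not show whether the reading frame is intact. NQO1, a quinone reductase and standard target of NRF2, averaged 16625 in KYSE450 and 107758 in KEAP1null-KYSE450 (log2 fold change 2.70, SE 0.10, adjusted p = 3.94e-10). NFE2L2, the NRF2 gene, averaged 11010 and 7948 and was lower by adjusted p (-0.47, adjusted p = 6.34e-04), a call lost with edgeR on 4 libraries (adjusted p = 0.0583). All 7 epithelial markers (KRT5, KRT6A, KRT14, TP63, SOX2, CDH1, EPCAM) were detected in both lines, though not at like levels. By adjusted p, 5 were lower in KEAP1null-KYSE450 and 1, KRT5, was higher. Over all genes tested, 25.5% were lower and 24.3% higher by adjusted p. KRT14 averaged 2401 in KYSE450 and 34.5 in KEAP1null-KYSE450, and KRT6A 71578 and 2738. Of 5 immune markers none reached a mean of 10 over the 6 libraries, and PECAM1 and CLDN5 among 4 endothelial markers were at 0 in all 6 libraries. Summed normalized counts of the immune markers were 5.59 to 16.2 in KYSE450 and 14.8 to 30.3 in KEAP1null-KYSE450. Those of 5 fibroblast markers were 621 to 845 and 347 to 431, nearly all from COL1A1.

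Of the 10 ETS genes, all 10 passed the filter on low values, with means over the 6 libraries of at least 636. ETS1 and ETS2 were called lower in KEAP1null-KYSE450 and none was called higher. Over all 16701 genes tested, 5.98% were called lower and 12.2% higher. By adjusted p alone, 6 of the 10 were lower and 0 higher, where 25.5% of all genes were lower and 24.3% higher. In 7 of the 10 (ETS1, ETS2, ELF1, ELF3, EHF, ELK3 and ERF) all 3 KEAP1null-KYSE450 libraries lay below all 3 KYSE450 libraries, and in 0 of the 10 above. That arrangement held in 29.3% of all genes for below and in 28.4% for above. The median log2 fold change of the 10 was -0.47, beside 0.00 over all genes tested.

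**Figure D1:**
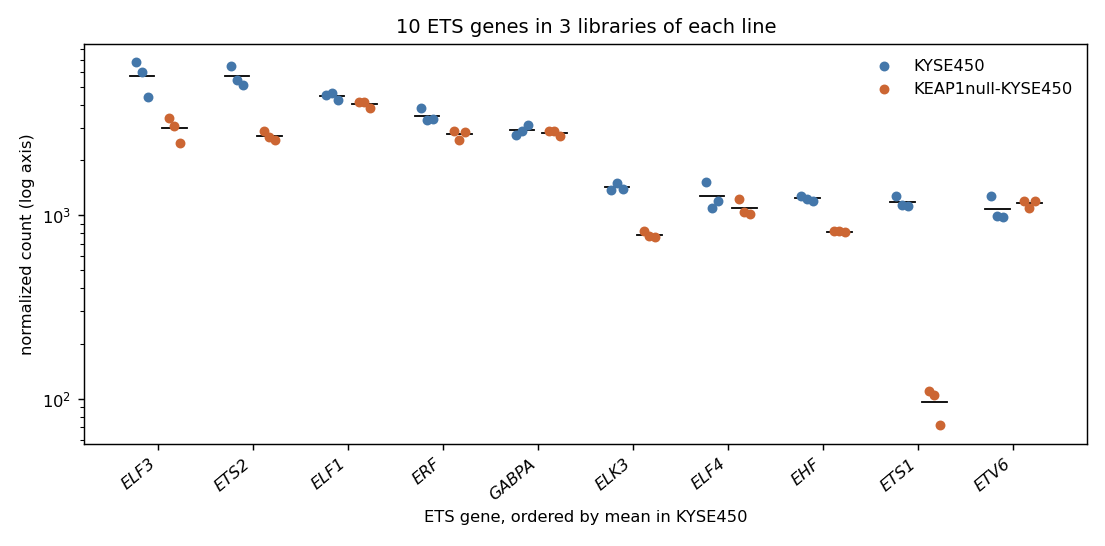
Normalized counts (log axis) of the 10 ETS genes in each of 3 KYSE450 and 3 KEAP1null-KYSE450 libraries, with points for libraries and bars for the mean of each line. ETS1 falls from between 1119 and 1279 to between 71.6 and 110, while the points of ELF4, ETV6 and GABPA overlap between the lines.

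Stretches of DNA before the members' transcription starts are shown because they hold the letters that bear most directly on ETS factors or NRF2. The 250 bases before the RefSeq start (GRCh38.p14) were searched on both strands for CCGGAA, a consensus ETS site, for TGANTCA, the AP-1 site, and for TGACNNNGC, the core of the antioxidant response element bound by NRF2 with small MAF proteins. Of the 10 genes, 9 had an entry, and ETS1 had none. RefSeq starts can differ from the GENCODE gene coordinates given in the text. The windows of ELF1, ELF3, EHF and GABPA lie inside those coordinates, so they precede the RefSeq start only. Distances are to the RefSeq start. TGACNNNGC was found in 2 of the 9, in ETS2 with its first base 160 bases before the start and in ERF 77 bases before it. It was present in 11.0% of the 27305 windows of the table. CCGGAA was found in 1 of the 9, GABPA, 65 bases before the start, and in 14.8% of all windows. TGANTCA was found in 0 of the 9 and in 6.60% of all windows, and in 130 windows it overlapped TGACNNNGC. The capitals mark the match, which is a description of letters and not of a bound site. For GABPA the match lies on the reverse strand and is printed with 12 bases on each side.
ETS2, chr21:38804933-38805182, plus strand: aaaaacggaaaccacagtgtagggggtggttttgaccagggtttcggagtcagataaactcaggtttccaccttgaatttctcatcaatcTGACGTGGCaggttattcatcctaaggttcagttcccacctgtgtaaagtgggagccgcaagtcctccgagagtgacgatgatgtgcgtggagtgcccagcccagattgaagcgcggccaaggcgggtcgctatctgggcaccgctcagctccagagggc
ERF, chr19:42255129-42255378, minus strand: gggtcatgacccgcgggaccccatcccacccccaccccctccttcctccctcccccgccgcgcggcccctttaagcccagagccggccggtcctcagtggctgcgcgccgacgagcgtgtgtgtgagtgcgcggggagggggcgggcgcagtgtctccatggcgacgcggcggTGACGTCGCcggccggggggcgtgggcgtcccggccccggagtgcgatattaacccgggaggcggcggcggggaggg
GABPA, chr21:25734895-25734924, plus strand: cctccgctctacTTCCGGccctggctccgc
The windows of ETS2 and ERF differ in base composition, with 54.4% G and C in ETS2 and 76.8% in ERF, beside a median of 58% over all windows.

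ETS1 showed the largest difference of the 10. ETS1 (ENSG00000134954, hg38 chr11:128458761-128587558, minus strand) is an ERK-responsive activator known for its part in invasion and in the basal state of squamous epithelium. Its normalized counts were 1279, 1134 and 1119 in KYSE450 and 110, 105 and 71.6 in KEAP1null-KYSE450. The highest KEAP1null-KYSE450 library lay far below the lowest KYSE450 library. ETS1 was 12.4-fold lower (log2 fold change -3.63, SE 0.18, adjusted p = 7.50e-09) and passed both thresholds in 15 of 15 other fits, with log2 fold changes of -3.80 to -3.44.

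ETS2 is the closest paralog of ETS1, with the same DNA-binding preference and the same ERK-responsive activation, and was changed far less. ETS2 (ENSG00000157557, chr21:38805183-38824955, plus strand, the gene that follows the first window printed) had 6494, 5452 and 5139 normalized counts in KYSE450 and 2888, 2667 and 2574 in KEAP1null-KYSE450. The groups did not overlap, and KYSE450 library 1 was the highest of the 6. ETS2 was 2.09-fold lower (log2 fold change -1.07, SE 0.11, adjusted p = 5.56e-06). Its adjusted p held in 15 of 15 other fits, while the fold change cutoff was met in 13 of them and missed after quantile normalization (-0.94) and without KYSE450 library 1. An antisense transcript, AP001043.1, shares 112 exonic bases with ETS2 but averaged only 9.96 normalized counts in KYSE450 and 21.2 in KEAP1null-KYSE450.

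The unequal change of the pair was read within each library, where the scaling between libraries plays no part. The log2 ratio of ETS1 to ETS2 was -2.34, -2.26 and -2.20 in KYSE450 and -4.70, -4.65 and -5.15 in KEAP1null-KYSE450. All KEAP1null-KYSE450 ratios were lower, and the difference was -2.57 (-2.27 ± 0.07 against -4.84 ± 0.27, SD, n = 3 each). The exact two-sided permutation test gave p = 0.1, the smallest that 3 against 3 allows.

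ERG, an ETS factor best known from endothelium and from gene fusions in prostate cancer, lies beside ETS2 on chromosome 21, with starts 143 kb apart. ERG had 291, 259 and 266 normalized counts in KYSE450 and 70.1, 84.6 and 50.4 in KEAP1null-KYSE450. The groups did not overlap, and the difference of -2.00 (SE 0.22, adjusted p = 1.36e-05) passed both thresholds in 15 of 15 other fits. FLI1, the paralog of ERG, starts 99.0 kb from ETS1 on chromosome 11 and was brought in after its values were seen. FLI1 had 26.7, 18.2 and 14.0 normalized counts in KYSE450 and 0, 1.02 and 0 in KEAP1null-KYSE450, a mean just under the filter of 10. With so few reads in KEAP1null-KYSE450 no fold change is given. Of the 4 endothelial markers, PECAM1 and CLDN5 were at 0 throughout, VWF averaged 45.4 and 54.4 (adjusted p = 0.540) and CDH5 was called lower, from 10.7, 20.2 and 28.9 to 1.85, 3.06 and 1.01 (adjusted p = 0.00480). Their summed level was 57.8 to 73.8 normalized counts in KYSE450 and 41.5 to 68.6 in KEAP1null-KYSE450. Without correction for gene length, that sum was below the ERG counts in KYSE450 and overlapped them in KEAP1null-KYSE450. The part of endothelial transcripts in the ERG and FLI1 values was not tested.

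Other genes around the 2 loci were compared next. Within 500 kb of the ETS1 start 3 genes were tested, of which 1, TP53AIP1 at 356 kb, was called lower (-2.06, adjusted p = 0.00104). All 3 lay on the same side of ETS1, and the nearest, KCNJ5 at 304 kb, had a log2 fold change of 0.71 (adjusted p = 0.257) at averages of only 10.7 and 18.7 normalized counts. Within 500 kb of ETS2 4 genes were tested. ERG was the nearest on 1 side and AP001043.1 on the other (1.13, adjusted p = 0.174). PSMG1, a proteasome assembly chaperone 378 kb from ETS2, was lower by adjusted p with a log2 fold change of -0.40 (adjusted p = 0.00786). Among genes with a mean of at least 100 within 1 Mb, a window added after values were seen, the median log2 fold change was -0.46 over 4 genes around ETS1, all of them below 0 (-6.02 to -0.13). Around ETS2 it was -0.02 over 6 genes, which ran from -2.00 to 1.42. The number of copies of these loci in each line was not tested.

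Across the 6 libraries, the genes whose centred log2 profile lay nearest to that of ETS1 were HIVEP3, KIRREL1 and GPRC5A, with root-mean-square differences of 0.18, 0.20 and 0.21 on the log2 scale. For ETS2 they were NRM, FSCN1 and AL451042.2, at 0.03, 0.04 and 0.04. With 6 libraries in 2 groups, likeness of this kind is mostly a like difference between the lines, and FSCN1, for example, averaged 22775 in KYSE450 and 10635 in KEAP1null-KYSE450.

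The epithelium-specific pair was lower by adjusted p. ELF3 (ENSG00000163435, chr1:202007945-202017183, plus strand) is an epithelial activator of differentiation and inflammatory genes. It had 6815, 6028 and 4417 normalized counts in KYSE450 and 3381, 3050 and 2479 in KEAP1null-KYSE450. The groups did not overlap, but the KYSE450 libraries spread widely, from 4417 to 6815. Its log2 fold change was -0.94 (SE 0.15, adjusted p = 2.97e-04), just short of the cutoff, and ranged from -1.12 to -0.77 over the other fits. Both thresholds were passed in 2 of 15, without KYSE450 library 3 (-1.12) and without KEAP1null-KYSE450 library 1 (-1.04). The antisense gene ELF3-AS1 shares 664 exonic bases with ELF3 (9.24% of its exons) and averaged 406 in KYSE450 and 157 in KEAP1null-KYSE450. Whether counting used strand is not given in the sources used here, so reads of the shared stretch cannot be told apart.

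EHF (ENSG00000135373, chr11:34621093-34663288, plus strand) is the other epithelium-specific member. It had 1271, 1232 and 1200 normalized counts in KYSE450 and 816, 819 and 806 in KEAP1null-KYSE450. The libraries within each line were close together and the groups well apart. Its log2 fold change was -0.60 (SE 0.10, adjusted p = 4.37e-04) and kept its adjusted p in 15 of 15 other fits. The log2 ratio of ELF3 to EHF was 2.20 ± 0.28 in KYSE450 and 1.86 ± 0.22 in KEAP1null-KYSE450 (SD, n = 3 each), a difference of -0.34 within the spread of the libraries (exact two-sided permutation p = 0.3).

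ELK3 (ENSG00000111145, chr12:96194375-96269824, plus strand) is a ternary complex factor that binds DNA together with SRF and represses until it is phosphorylated. It had 1371, 1493 and 1390 normalized counts in KYSE450 and 817, 773 and 761 in KEAP1null-KYSE450. The groups did not overlap, and the log2 fold change was -0.86 (SE 0.11, adjusted p = 3.21e-05). The other ternary complex factors did not pass the test. ELK1 averaged 2853 and 2830 (-0.01, adjusted p = 0.939, sign changed in 5 other fits), and ELK4 averaged 1756 and 2095 (0.25, adjusted p = 0.0508). All 3 KEAP1null-KYSE450 libraries were above KYSE450 for ELK4, whose adjusted p fell under 0.05 in 4 of 15 other fits.

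The repressors split. ERF (ENSG00000105722, chr19:42247569-42255128, minus strand, the gene of the second window printed) had 3828, 3292 and 3320 normalized counts in KYSE450 and 2870, 2554 and 2832 in KEAP1null-KYSE450. The groups did not overlap, with a log2 fold change of -0.34 (SE 0.10, adjusted p = 0.0139). That call was lost in 4 of 15 other fits, among them without KEAP1null-KYSE450 library 2 (adjusted p = 0.0784) and with edgeR on 4 libraries (adjusted p = 0.0957). ETV3, a related repressor, averaged 2131 and 1364 (-0.64, adjusted p = 3.95e-04), beside a median of -0.61 over 23 genes within 1 Mb of it. Around ERF that median was -0.31 over 17 genes. It was -0.33 over 10 genes around EHF, -0.33 over 8 around ELK3 and -0.23 over 20 around ELF3. ETV6 (ENSG00000139083, chr12:11649674-11895377, plus strand), a repressor that polymerises through its pointed domain, had 1279, 990 and 974 normalized counts in KYSE450 and 1199, 1094 and 1195 in KEAP1null-KYSE450. The KEAP1null-KYSE450 libraries lay inside the range of KYSE450 (log2 fold change 0.12, SE 0.13, adjusted p = 0.470).

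ELF1, ELF4 and GABPA are broadly expressed members, and none passed the test. ELF1 (ENSG00000120690, chr13:40931924-41061440, minus strand) had 4486, 4649 and 4229 normalized counts in KYSE450 and 4111, 4151 and 3847 in KEAP1null-KYSE450. The groups did not overlap, yet the log2 fold change was -0.14 (SE 0.09, adjusted p = 0.208) and 0.01 after quantile normalization. ELF4 (ENSG00000102034, chrX:130063955-130110716, minus strand) had 1518, 1092 and 1199 against 1226, 1042 and 1015, overlapping groups with a log2 fold change of -0.20 (SE 0.14, adjusted p = 0.229). ELF2, a further relative of ELF1, averaged 970 and 1035 (0.09, adjusted p = 0.499).

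GABPA (ENSG00000154727, chr21:25734570-25772460, plus strand, the gene of the third sequence printed) binds DNA as a complex with GABPB1 or GABPB2. It had 2732, 2868 and 3113 normalized counts in KYSE450 and 2872, 2879 and 2687 in KEAP1null-KYSE450. The groups overlapped, and the log2 fold change of -0.04 (SE 0.09, adjusted p = 0.717) changed sign in 3 of 15 other fits. ATP5PF, on the opposite strand, shares 692 exonic bases with GABPA (12.1% of its exons) and averaged 5901 in KYSE450 and 6875 in KEAP1null-KYSE450, so part of the GABPA count cannot be assigned. Both beta subunits, named after their values were seen, were lower by adjusted p, GABPB1 with 1674 and 1230 (-0.44, adjusted p = 0.00598) and GABPB2 with 926 and 602 (-0.62, adjusted p = 0.00121).

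**Figure D2:**
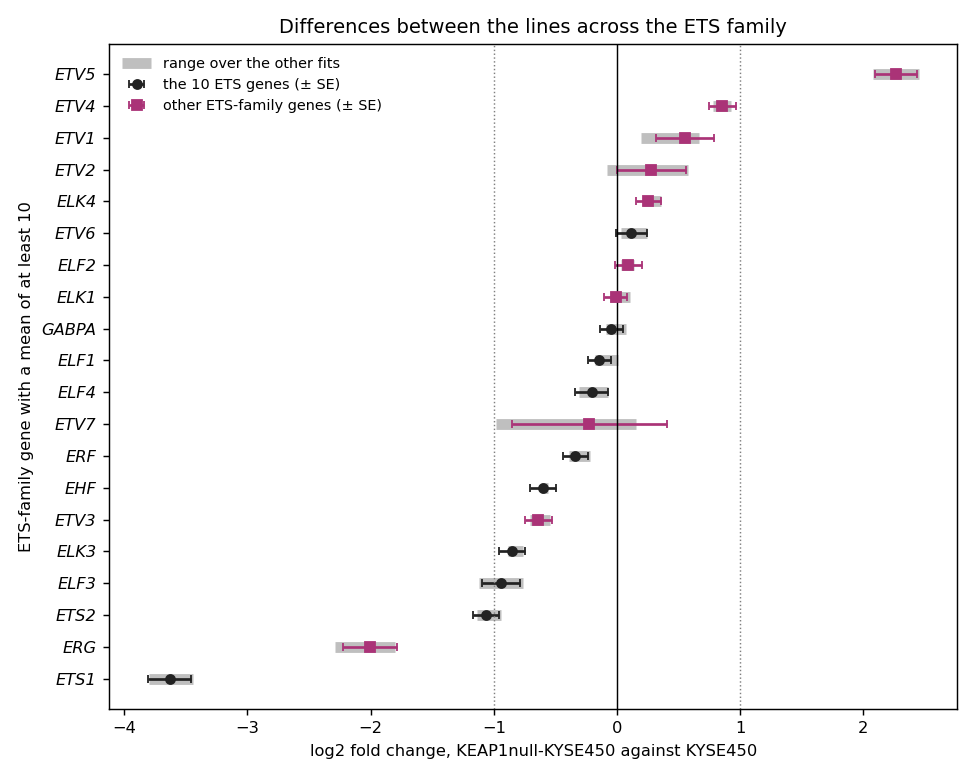
Log2 fold change of the 20 ETS-family genes tested, KEAP1null-KYSE450 against KYSE450, with SE bars, grey bands for the range over 15 other fits and dotted lines at the cutoff of 1. ETS1 at -3.63, ERG at -2.00 and ETS2 at -1.07 lie below the cutoff and ETV5 at 2.27 lies above it.

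The opposite direction was seen in the PEA3 group, ETV1, ETV4 and ETV5, activators whose transcripts follow ERK signaling and are repressed by CIC. ETV5 had 365, 229 and 267 normalized counts in KYSE450 and 1466, 1182 and 1444 in KEAP1null-KYSE450. The groups were far apart, and ETV5 was higher by 2.27 on the log2 scale (SE 0.17, adjusted p = 4.00e-07). ETV4 had 1044, 918 and 1000 against 1974, 1631 and 1764, higher by adjusted p with a log2 fold change of 0.86 (SE 0.11, adjusted p = 5.10e-05). ETV1 had 80.2, 79.9 and 102 against 164, 112 and 113, groups that did not overlap but with an adjusted p of 0.0665 for a log2 fold change of 0.55. Without KYSE450 library 3 the adjusted p of ETV1 was 0.0496. CIC itself, named after its values were seen, averaged 2510 and 2049 (-0.27, adjusted p = 0.0976).

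**Figure D3:**
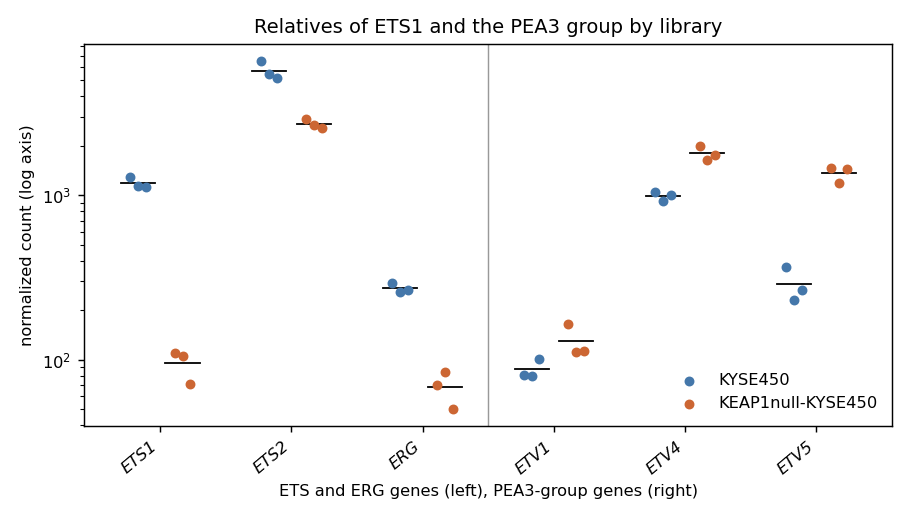
Normalized counts (log axis) of ETS1, ETS2 and ERG (left) and of the PEA3-group genes ETV1, ETV4 and ETV5 (right) in each of 3 libraries of each line, with bars for the mean. The left genes are lower in all 3 KEAP1null-KYSE450 libraries and the right genes higher, from 287 to 1364 on average for ETV5.

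Of the 18 further ETS genes, 10 passed the filter, with 1 called higher (ETV5) and 1 lower (ERG). By adjusted p alone, ETV4 and ETV5 were higher and ERG and ETV3 lower, and the median log2 fold change was 0.17. Over all genes tested, 12.2% were called higher and 5.98% lower, and 24.3% and 25.5% were so by adjusted p alone. ETV2 (77.2 and 97.3 on average, adjusted p = 0.427) and ETV7 (12.2 and 10.2, adjusted p = 0.793) were low and did not pass the test, and the sign of each changed in other fits. FLI1, FEV, ETV3L, ELF5, SPI1, SPIB, SPIC and SPDEF were below the filter, and FEV and SPIC were at 0 in all 6 libraries.

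Levels of different genes were compared per kb of annotated exon. In KYSE450 the order of normalized counts per kb ran from ETS2 (1144 ± 143, SD, n = 3) through ERF (1065 ± 92.2), ELF1 (1003 ± 47.6), ELF3 (801 ± 170), GABPA (506 ± 33.7), ELK3 (305 ± 14.1), ELF4 (242 ± 42.3), EHF (187 ± 5.35) and ETS1 (165 ± 12.4) to ETV6 (150 ± 23.8). The neighbours ETS2 and ERF, ERF and ELF1, and ETS1 and ETV6 overlapped over libraries. In KEAP1null-KYSE450, ELF1 (909 ± 37.2) and ERF (842 ± 52.8) stood first and overlapped. They were followed by ETS2 (544 ± 32.5), GABPA (490 ± 19.0), ELF3 (413 ± 63.5), ELF4 (209 ± 22.0), ELK3 (169 ± 6.34), ETV6 (161 ± 8.25) and EHF (123 ± 0.99), with overlap between GABPA and ELF3 and between ELK3 and ETV6. ETS1 came last at 13.4 ± 2.91.

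The 10 genes together gave 6043, 5499 and 5158 normalized counts per kb in KYSE450 and 4069, 3833 and 3717 in KEAP1null-KYSE450, groups that did not overlap (exact two-sided permutation p = 0.1, the smallest possible). ETS1 made up 2.96%, 2.88% and 3.03% of that sum in KYSE450 and 0.377%, 0.383% and 0.270% in KEAP1null-KYSE450. The difference of -2.62 percentage points had the same smallest exact permutation p of 0.1. The share of ETS2 was 20.5% ± 0.94 and 14.1% ± 0.19, while that of ELF1 was 18.1% ± 1.21 and 23.5% ± 0.83 and that of GABPA 9.15% ± 1.32 and 12.7% ± 0.40 (SD, n = 3 each). Shares sum to 100% in each library, so a lower share of some genes makes those of the others higher.

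**Figure D4:**
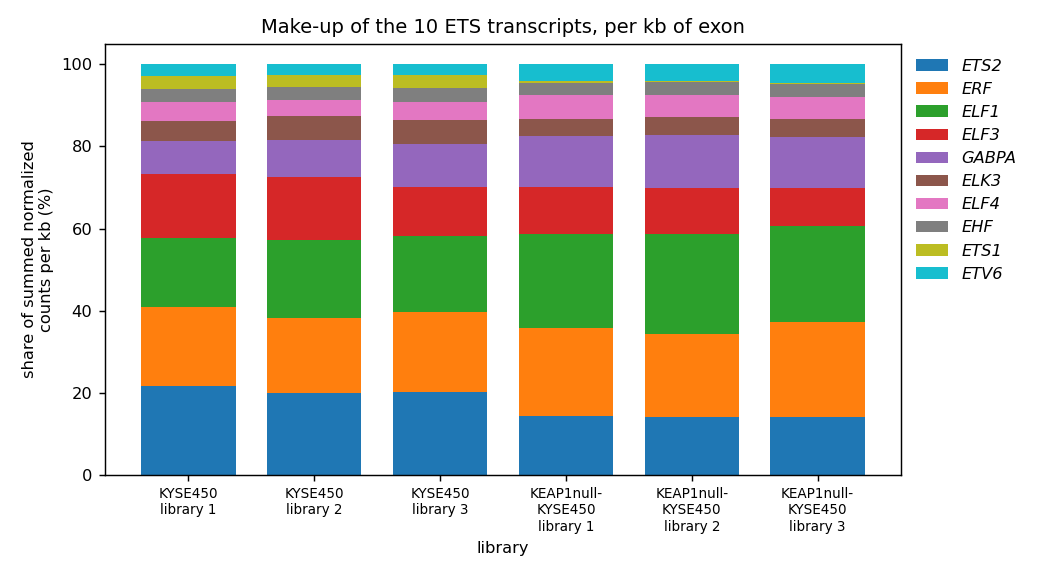
Share (%) of each of the 10 ETS genes in their summed normalized counts per kb of exon, stacked for each of the 6 libraries. The ETS1 band shrinks from 2.96% to 0.343% on average and the ETS2 band from 20.5% to 14.1%.

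ETS factors act through partners and are set by upstream kinases, and 20 such genes were all tested. None was called higher and 2 were called lower. These were RUNX1 (2429 and 921 on average, -1.39, SE 0.12, adjusted p = 2.19e-06) and RUNX2 (362 and 162, -1.14, SE 0.18, adjusted p = 2.22e-04), RUNT-domain factors that bind DNA cooperatively with ETS1. By adjusted p alone 9 were lower, 0 higher and 11 did not pass, with a median log2 fold change of -0.23. Over all genes tested, 5.98% were called lower and 25.5% were lower by adjusted p alone. Of the 9, CBFB, the shared partner subunit of the RUNX factors, kept its call in 7 of 15 other fits. SRF, the partner of the ternary complex factors, had 3034, 2583 and 2566 normalized counts in KYSE450 and 1813, 1619 and 1695 in KEAP1null-KYSE450, lower by adjusted p without overlap (-0.67, adjusted p = 1.99e-04). JUN, an AP-1 subunit that shares composite sites with ETS1 and ETS2, was lower at 1204 and 664 (-0.85, adjusted p = 1.51e-04). SRF and JUN were named after their values were seen.

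The lists of genes linked to ETS factors were written from textbook knowledge and not from binding data, and no binding was measured here. Like the partner list, they were chosen with earlier results of these data known. Their counts therefore describe the listed genes and are no test of ETS activity. Of 15 genes linked to ETS1 or ETS2, mostly protease, matrix and growth genes, 11 were tested, 6 were called lower and 0 higher, and the median log2 fold change was -1.22. The shares over all genes tested were 5.98% lower and 12.2% higher. The interstitial collagenase gene MMP1 had 204, 280 and 226 normalized counts in KYSE450 and 0.92, 0 and 0 in KEAP1null-KYSE450. Collagenase-3, MMP13, had 2601, 2396 and 2749 against 0, 6.12 and 1.01. Both passed both thresholds, but with so few reads in KEAP1null-KYSE450 the size of their fitted fold changes depends on the pseudocount and is not given. PTHLH, the parathyroid hormone-like hormone gene, had 15664, 17063 and 14842 against 404, 400 and 380 (-5.32, SE 0.10, adjusted p = 4.20e-13). TNC, the matrix protein tenascin C, averaged 304 and 26.5 (-3.47, adjusted p = 1.30e-06), the urokinase receptor gene PLAUR 255 and 38.0 (-2.73, adjusted p = 1.52e-06) and the cell cycle inhibitor gene CDKN1A 395 and 169 (-1.22, adjusted p = 5.98e-05).

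The list was not uniform. PLAU, which encodes urokinase itself, had 1554, 1420 and 1252 normalized counts in KYSE450 and 2492, 1928 and 1870 in KEAP1null-KYSE450, higher by adjusted p without overlap (0.57, adjusted p = 0.00302). SERPINB5, the maspin gene, was likewise higher by adjusted p (4529 and 5337, 0.24, adjusted p = 0.0407), a call kept in 6 of 15 other fits. MET, the hepatocyte growth factor receptor, was lower by adjusted p (5275 and 2680, -0.99, adjusted p = 3.64e-05). PLAU, SERPINB5 and MET were named after their values were seen. MMP3, MMP9, CDKN2A and ITGB3 were below the filter, and CDKN2A was at 0 in all libraries.

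Genes linked to ELF3 or EHF moved in both directions. Of 16, 15 were tested, 8 were called lower and 1 higher, and the median log2 fold change was -1.44. The shares over all genes tested were 5.98% lower and 12.2% higher. The cornified envelope genes SPRR1B, SPRR3 and SPRR2A were at 0 in all 3 KEAP1null-KYSE450 libraries. Against a floor of 3.21 normalized counts they were at least 46.4-fold, 17.6-fold and 11.2-fold lower, from averages of 149, 56.5 and 35.8 in KYSE450. That floor is 3 reads in KYSE450 library 1, the highest among the 4 libraries whose reads were recovered. KEAP1null-KYSE450 library 3 was not among those 4. SPRR1A had 93.0, 67.7 and 97.0 normalized counts in KYSE450 and 2.77, 3.06 and 1.01 in KEAP1null-KYSE450. The prostaglandin synthase gene PTGS2 was lower at 1435 and 62.7 (-4.51, adjusted p = 8.17e-10) and the tight junction gene CLDN7 at 2850 and 302 (-3.23, adjusted p = 3.94e-10), both named after their values were seen. CCL20 and LCN2, an epithelial chemokine and an antimicrobial iron-trap protein, were the other 2 called lower. KRT4, a keratin of the suprabasal mucosa, was the 1 called higher, with 734, 581 and 587 against 24520, 22125 and 21604 (5.17, SE 0.11, adjusted p = 2.29e-12). By adjusted p alone 9 of the list were lower and 4 higher, where 25.5% of all genes were lower and 24.3% higher. Among the 4 were KRT8 (0.81, adjusted p = 1.28e-04) and KRT18 (0.71, adjusted p = 2.97e-04), named after their values were seen.

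Genes linked to GABP, mainly of the mitochondrial respiratory chain and its transcription, were not called in either direction by limma (0 of 10 tested). By adjusted p alone 3 were higher and 1 lower, and the median log2 fold change was 0.14. Of all genes tested, 24.3% were higher and 25.5% lower by adjusted p alone, near the share that was higher here. The subunit genes COX5B (17528 and 22440, 0.36, adjusted p = 0.0282) and COX7C (12477 and 16947, 0.45, adjusted p = 0.00747) and UTRN (516 and 995, 0.96, adjusted p = 0.00115), which encodes the muscle and epithelial cytoskeletal protein utrophin, were the 3 that were higher. ATP5F1B, an ATP synthase subunit, was lower (130480 and 100704, -0.37, adjusted p = 0.0137). The calls of COX5B and ATP5F1B were each kept in 9 of 15 other fits, with adjusted p up to 0.163 and 0.251 (both with edgeR on 4 libraries), and that of COX7C in 13 of 15.

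Immediate early genes, the classic targets of SRF with the ELK factors, were also mixed. Of 8 tested, EGR1 was called higher, with 1575, 1178 and 1283 normalized counts in KYSE450 and 3350, 3195 and 3264 in KEAP1null-KYSE450 (1.29, SE 0.12, adjusted p = 2.12e-06). JUNB, an AP-1 subunit, was called lower (1500 and 739, -1.02, SE 0.11, adjusted p = 1.08e-05), as it was in 11 of 15 other fits. FOS averaged 125 and 111 in overlapping groups (-0.15, adjusted p = 0.618). The median log2 fold change of the 8 was -0.42.

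**Figure D5:**
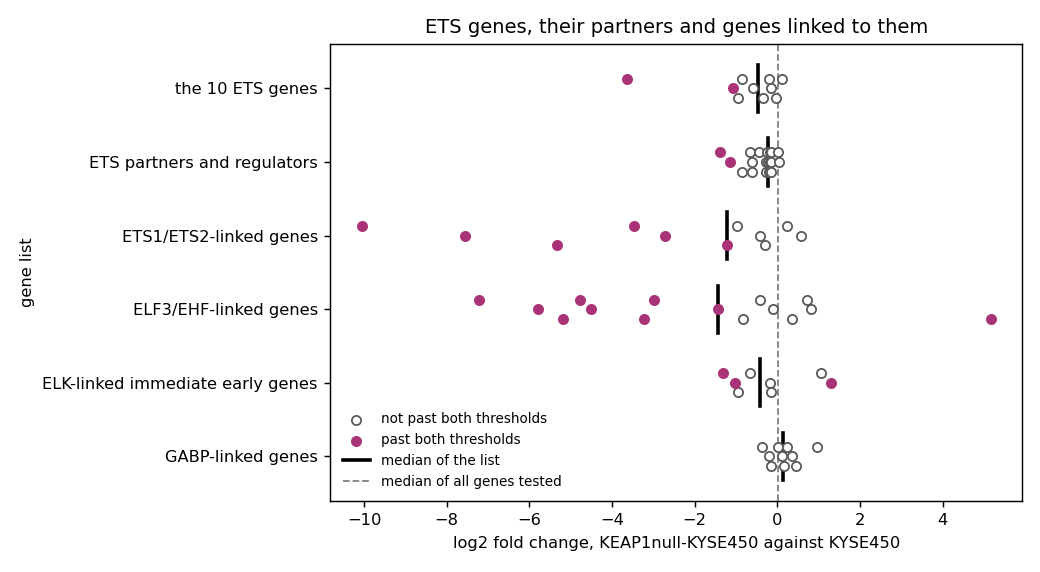
Log2 fold change, KEAP1null-KYSE450 against KYSE450, of the tested genes in 6 lists, with filled points past both thresholds, black bars for list medians and a dashed line for the median of all genes tested (0.00). List medians are -0.47 for the 10 ETS genes, -0.23 for partners, -1.22 for ETS1/ETS2-linked, -1.44 for ELF3/EHF-linked, -0.42 for ELK-linked and 0.14 for GABP-linked genes, and fitted values of genes near 0 reads depend on the pseudocount.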

How the data were processed

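RNA was extracted from cultured cells of each line and sequenced as 150 bp reads from NEBNext Ultra libraries. Per the labels and the study's methods, the authors trimmed reads (cutadapt 1.12), aligned them to hg38 (STAR 2.6.90c), counted genes (featureCounts 1.5.1) and deposited 1 signal table of counts divided by size factors. Totals were 54829313 to 57380170 normalized counts per library. Columns name the line but no replicate, so libraries are numbered by column order. Genes with a mean of at least 10 (16701) were tested with limma 3.58.1 (R 4.3.3) on log2(normalized count + 1), with trend, two-sided, Benjamini-Hochberg over all. The pseudocount pulls the fold changes of weakly expressed genes towards 0. Log2 ratios used the same pseudocount. In 4 libraries the deposited signal was a whole multiple of 1 read for 100% of values within 0.1, giving 53027359 to 61543442 reads. On those reads edgeR 4.0.16 called 1826 genes higher and 872 lower, and DESeq2 1.42.0 called 1623 and 877. Loci, exon lengths and overlaps come from GENCODE, promoter sequences from RefSeq. Named genes were all 10 ETS genes, every other ETS gene past the filter and, from each list, at most 4 called genes per direction by size, with KEAP1, NFE2L2 and NQO1 as checks and, for ETS1 and ETS2, 3 like profiles and the nearest genes. The members and lists were chosen with earlier results of these data known. Genes named beyond the rule just given were named with their values known, also where the text does not say so. Among these are CIC, CBFB, PLAUR, CDKN1A, CCL20, LCN2, FOS, VWF, COX5B, COX7C, UTRN and ATP5F1B. The fitting code was tested on simulated data whose changed genes were set at or past the fold change cutoff, after a first design with weaker changes had missed the recovery asked of it. Results for some genes of the lists are not reported here.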

Additional observations from a re-analysis of the deposited data

How the results depend on the processing

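No paired analysis was possible because the columns name the line but carry no replicate number. With limma, 2045 genes were called higher and 999 lower, 67.2% of calls being higher. A mean of at least 100 gave 875 and 683 (56.2% higher) and quantile normalization 1376 and 1282 (51.8%). Without the fold change cutoff the counts were 4060 and 4251. ETS genes called lower numbered 2, became 1 after quantile normalization, ranged from 1 to 3 when 1 library was left out (1 without KYSE450 library 1, where ETS2 missed the cutoff, and 3 without KYSE450 library 3 or KEAP1null-KYSE450 library 1, where ELF3 met it) and were 6 without the cutoff. Among the ETS genes tested and KEAP1, NFE2L2 and NQO1, signs changed only where the adjusted p was not under 0.05. These included ETV2 (0.28) and ETV7 (-0.22). FOS (-0.15) also changed sign in 2 of 15 other fits. After quantile normalization ELF1 became 0.0051, GABPA 0.073, ETV2 -0.083, ELK1 0.10 and KEAP1 0.14. After rescaling to equal totals ELK1 became 0.022 and KEAP1 0.016, and with edgeR GABPA became 0.0091. When 1 library was left out, GABPA ranged from -0.088 to 0.0064, ETV7 from -0.65 to 0.16, ELK1 from -0.059 to 0.022 and KEAP1 from -0.072 to 0.040. The causes were not tested. The count tests rest on 2 libraries of each line. Genes near 3 reads are limited by depth, and that floor reached 3.21 normalized counts.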
